A study of Mus musculus with 10 samples.

Results

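The Cyp2a genes encode cytochrome P450 enzymes of family 2, subfamily A, and 4 of them, Cyp2a4, Cyp2a5, Cyp2a12 and Cyp2a22, were described here across the liver libraries of the study. They were taken by gene name from a table of 55401 genes, each name matched 1 row, and all 4 passed the filter of a mean level of at least 0.5 FPKM (fragments per kilobase of transcript, scaled to the mapped fragments of the library). The family was chosen by the measured level of Cyp2a4, which is lower in NIKhKO livers in these same libraries, so the genotype difference of these 4 genes is given as a description, with no p-value.

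The livers came from 5 mice labelled NIKhKO and 5 labelled NIKflox. NIK is the NF-kB inducing kinase, encoded by Map3k14. All 10 mice received the same Lieber-DeCarli liquid diet, with 5% ethanol over 4 weeks, so no group without ethanol was analysed here and every value below is from ethanol-fed liver. The series title speaks of hepatic NIK, and neither the promoter that drives any Cre, the exons removed, the strain nor the age is given in the sources used here. Map3k14 read 0.347 to 0.443 FPKM in NIKhKO and 0.483 to 0.899 FPKM in NIKflox, which did not overlap, at a mean just under the filter. Total estimated counts were 53225028 to 64321202 in NIKhKO and 47161869 to 65052525 in NIKflox. Xist, which is expressed in females, read 17.0 to 20.8 FPKM in NIKhKO and 14.4 to 20.7 FPKM in NIKflox. By this gene all 10 libraries read as female. The labels do not tell litters, cages or extractions apart, so any p-value here measures the spread between these samples, which may be partly technical.

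Cytochrome P450 enzymes of this family sit in the endoplasmic reticulum membrane of hepatocytes, carry a haem group, and use electrons passed on by P450 oxidoreductase (Por) to add an oxygen atom to steroids, drugs and small toxins. Cyp2a5 is the coumarin hydroxylase of mouse liver, also oxidises nicotine, is found mainly in pericentral hepatocytes and is known to be induced by ethanol in mice. Cyp2a4, its near-identical neighbour, hydroxylates testosterone and is a female-biased gene of mouse liver. Cyp2a12 is also a testosterone hydroxylase. Mouse Cyp2a4 and Cyp2a5 have both been described as outputs of the clock-controlled factor Dbp.

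All 4 genes lie on chromosome 7 of the mouse genome. In the coordinates of the table, read as GRCm38, Cyp2a4 (ENSMUSG00000074254) spans 26307169 to 26315088 on the plus strand and Cyp2a5 (ENSMUSG00000005547) spans 26835305 to 26843548 on the plus strand. Cyp2a22 (ENSMUSG00000091867) spans 26931631 to 26939384 on the minus strand and Cyp2a12 (ENSMUSG00000060407) spans 27029081 to 27037375 on the plus strand. The first 118 bases of the 7920 bases of Cyp2a4 overlap the antisense gene Gm42375, and all 7754 bases of Cyp2a22 lie within the span of the pseudogene Cyp2a21-ps on the other strand. The labels do not say whether the libraries keep strand, so reads from such partners cannot be told apart.

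The 4 genes form 2 near-identical pairs, and this bears on every level below, since reads that match both members of a pair had to be divided by the authors' software. The coding sequences of Cyp2a4 and Cyp2a5 in the GENCODE M21 annotation have 1482 bases each, and 1459 of these are identical (98.45%), with 23 differences and no gap. Cyp2a22 and Cyp2a12 are identical at 1431 of 1476 coding bases (97.0%, 45 differences). Between the pairs the identity was 75.2% to 76.4%. Of all stretches of 50 bases in the Cyp2a4 transcript, 36.1% occur unchanged in the Cyp2a5 transcript, 11.2% of stretches of 100 bases do and 4.22% of stretches of 150 bases do. For Cyp2a22 against Cyp2a12 these shares were 25.7%, 6.36% and 3.46%. No stretch of 50 bases is shared between the pairs. The stretch of 90 coding bases within 1 exon that holds the most differences between Cyp2a4 and Cyp2a5 shows how few letters separate them. It lies in exon 4 of both genes, at chr7:26308970-26309059 for Cyp2a4 and chr7:26837133-26837222 for Cyp2a5 (GRCm38, plus strand), and capitals mark the differing bases:
Cyp2a4: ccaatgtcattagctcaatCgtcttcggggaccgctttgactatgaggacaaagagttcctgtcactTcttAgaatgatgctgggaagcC
Cyp2a5: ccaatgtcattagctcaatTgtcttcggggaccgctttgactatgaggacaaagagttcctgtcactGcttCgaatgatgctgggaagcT
Counted from 1 at the first base of the start codon, with the base of Cyp2a4 first, the 4 differences are C555T, T603G, A607C and C625T.

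The sequence before the start sites divides into the same pairs. Over the 250 bases before RefSeq's start (GRCm38.p6), Cyp2a4 and Cyp2a5 are identical at 245 of 249 aligned bases, and Cyp2a22 and Cyp2a12 at 216 of 239, while members of different pairs are identical at 56.0% to 63.6% of the aligned bases. The sequences from base −250 to base −41 are shown for all 4 genes because Cyp2a4 and Cyp2a5 differ in their genotype values below while these bases hardly differ. They run 5′ to 3′ on the strand of the gene, at chr7:26306942-26307151 for Cyp2a4, chr7:26835089-26835298 for Cyp2a5, chr7:26939427-26939636 for Cyp2a22 and chr7:27028840-27029049 for Cyp2a12:
Cyp2a4: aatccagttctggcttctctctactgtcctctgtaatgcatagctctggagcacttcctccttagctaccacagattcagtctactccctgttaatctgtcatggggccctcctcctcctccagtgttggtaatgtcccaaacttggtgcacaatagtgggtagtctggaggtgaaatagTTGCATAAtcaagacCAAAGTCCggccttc
Cyp2a5: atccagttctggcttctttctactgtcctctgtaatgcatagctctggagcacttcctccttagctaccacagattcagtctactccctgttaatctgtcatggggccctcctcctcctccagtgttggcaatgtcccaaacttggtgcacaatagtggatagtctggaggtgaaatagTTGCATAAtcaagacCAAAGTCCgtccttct
Cyp2a22: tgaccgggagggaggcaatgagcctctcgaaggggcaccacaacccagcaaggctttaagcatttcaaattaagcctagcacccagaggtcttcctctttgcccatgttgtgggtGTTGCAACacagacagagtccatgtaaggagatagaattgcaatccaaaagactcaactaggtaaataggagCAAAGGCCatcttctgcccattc
Cyp2a12: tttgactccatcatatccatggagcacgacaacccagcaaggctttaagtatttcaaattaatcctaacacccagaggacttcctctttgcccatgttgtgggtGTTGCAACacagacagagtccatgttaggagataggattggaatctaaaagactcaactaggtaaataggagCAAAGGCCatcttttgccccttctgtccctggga
Counted from the first base printed for Cyp2a4, with its base first, Cyp2a5 differs from it by C19T, T131C, G161A and G205T. Capitals mark matches, on either strand, to 4 motifs that were chosen after the sequences had been read. TTGCATAA, a form of the element bound by C/EBP and PAR-bZIP factors such as Dbp, begins 70 bases before the start of Cyp2a4 and 71 bases before that of Cyp2a5, and 0.694% of all 32851 promoter windows of the same length hold it. CAAAGTCC, part of an element of the kind bound by Hnf4a, begins 55 and 56 bases before those starts (1.20% of windows). GTTGCAAC, a palindromic C/EBP-like element, begins 135 bases before the start of Cyp2a22 and 146 bases before that of Cyp2a12 (0.189% of windows), and CAAAGGCC begins 63 and 74 bases before those starts (1.37% of windows). The 4 motifs do not overlap one another in these windows, and each pair lacks the motifs of the other. TATAAA is present in all 4 windows (12.4% of windows). No window of the 4 holds TTATGTAA (0.819% of windows), TTCNNNGAA (7.02%) or TGACNNNGC (10.2%). A match describes letters in a window and not a bound site.

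Cyp2a4 was the member whose level set the genotypes apart. It read 87.5, 264, 247, 204 and 210 FPKM in NIKhKO 1 to 5, against 403, 571, 309, 478 and 429 FPKM in NIKflox 1 to 5. In FPKM every NIKhKO library lay below every NIKflox library, with NIKhKO 1 the lowest of all 10 and NIKflox 3 the lowest of its genotype. The estimated counts, which are not normalized, did overlap, with NIKhKO 2 at 32628 and NIKflox 3 at 32280. The means were 202 ± 69.1 FPKM in NIKhKO and 438 ± 96.4 FPKM in NIKflox (SD, n = 5 each), so that NIKhKO stood at 46.2% of the NIKflox mean. In the edgeR fit across all genes its log2 fold change, NIKhKO over NIKflox, was −1.05 (SE 0.27). The libraries nearest to each other across the genotypes were NIKhKO 2, at 264 FPKM, and NIKflox 3, at 309 FPKM. In a bulk liver sample, fewer cells of a type and less RNA per cell cannot be told apart.

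Cyp2a5, the coumarin hydroxylase, did not follow Cyp2a4. It read 310, 369, 403, 410 and 376 FPKM in NIKhKO 1 to 5, against 181.5, 241, 546, 283 and 668 FPKM in NIKflox 1 to 5. The NIKhKO libraries all lay inside the NIKflox range, where NIKflox 1, 2 and 4 were below every NIKhKO library and NIKflox 3 and 5 above every one. The means were 374 ± 39.7 FPKM in NIKhKO and 384 ± 211 FPKM in NIKflox (SD, n = 5 each), with a log2 fold change of 0.03 (SE 0.31). The coefficient of variation was 10.6% in NIKhKO and 55.0% in NIKflox, and whether the spread itself differs between the genotypes was not tested. Leaving out NIKflox 1, 2 or 4, or NIKhKO 3 or 4, turned the sign of the fold change negative.

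Cyp2a12 varied little between libraries of either genotype, with a coefficient of variation of 11.7% in NIKhKO and 15.0% in NIKflox. It read 200, 203, 228, 251 and 189 FPKM in NIKhKO 1 to 5, against 216, 187, 256, 188 and 249.5 FPKM in NIKflox 1 to 5. The ranges lay almost on top of each other. The means were 214 ± 25.1 FPKM in NIKhKO and 219 ± 32.8 FPKM in NIKflox (SD, n = 5 each), with a log2 fold change of 0.03 (SE 0.13) that was −0.03 in limma on log2(FPKM + 1). Cyp2a22 was expressed at about the level of a trace beside its twin. It read 2.90, 1.87, 1.05, 2.43 and 0.554 FPKM in NIKhKO 1 to 5, against 1.82, 1.51, 1.62, 1.12 and 2.16 FPKM in NIKflox 1 to 5. The NIKflox libraries fell within the wider NIKhKO range, which NIKhKO 1 headed and NIKhKO 5 closed. The means were 1.76 ± 0.963 FPKM in NIKhKO and 1.65 ± 0.385 FPKM in NIKflox (SD, n = 5 each), with a log2 fold change of 0.14 (SE 0.38) that was −0.004 in limma on log2(FPKM + 1), and the estimated counts behind it were 130 to 636 in NIKhKO and 279 to 490 in NIKflox.

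**Figure D1:**
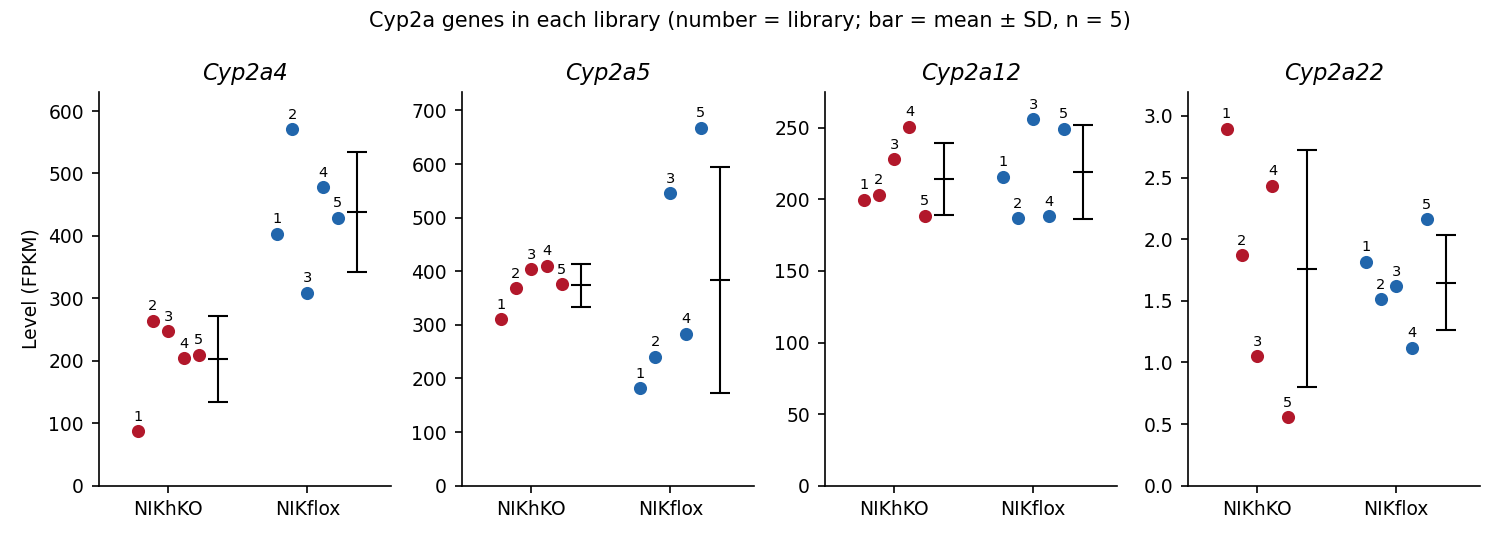
Level in FPKM (vertical axes, linear, starting at 0) of the 4 Cyp2a genes in each NIKhKO library (red) and NIKflox library (blue); digits are library numbers and black bars the mean ± SD of 5 libraries. The Cyp2a4 points of NIKhKO, 87.5 to 264 FPKM, all lie below those of NIKflox, 309 to 571 FPKM, while the points of the other 3 genes overlap.

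With a call set at an adjusted p below 0.05, edgeR's quasi-likelihood test called 0 of the 4 genes and 1, Cyp2a4, had an unadjusted p below 0.05, while over all 12730 tested genes 0.0236% were called and 9.99% had such an unadjusted p. DESeq2 called 1 of the 4, Cyp2a4, and 1.63% of all genes, and limma on log2(FPKM + 1) called 0 of the 4. FPKM ranges that did not overlap were seen for 1 of the 4, against 2.19% of all genes (1.59% lower in NIKhKO and 0.605% higher). The choice of the family rests on this same contrast, so these counts support nothing further.

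The order of the members by mean level per length differed between the genotypes, but single libraries shared an order across them. The order Cyp2a5, Cyp2a4, Cyp2a12 and Cyp2a22 was seen in 3 of 5 NIKhKO and 2 of 5 NIKflox libraries. Cyp2a4, on which the family was chosen, changes place between the orders of means, so they restate that choice. In NIKhKO the order of means was Cyp2a5, Cyp2a12, Cyp2a4 and Cyp2a22. Cyp2a12 and Cyp2a4 did not differ beyond their spread there, with Cyp2a4 above Cyp2a12 in 3 of 5 libraries. In NIKflox the order of means was Cyp2a4, Cyp2a5, Cyp2a12 and Cyp2a22, and Cyp2a5 overlapped both of its neighbours in that order. Cyp2a5 was above Cyp2a4 in 5 of 5 NIKhKO libraries and in 2 of 5 NIKflox libraries. Cyp2a22 was last in 10 of 10. Over all libraries Cyp2a5 (mean 379 FPKM) ranked 129th, Cyp2a4 (320 FPKM) 160th, Cyp2a12 (217 FPKM) 229th and Cyp2a22 (1.70 FPKM) 8742nd among the genes of the table. The 4 levels summed to 600 to 880 FPKM in NIKhKO and to 802 to 1349 FPKM in NIKflox.

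Because Cyp2a4 and Cyp2a5 share so much sequence, their levels were also added. The sum was 398, 633, 651, 614 and 585 FPKM in NIKhKO 1 to 5, against 585, 811, 855, 762 and 1097 FPKM in NIKflox 1 to 5. NIKflox 1 lay just below NIKhKO 5 and so inside the NIKhKO range, and the other 4 NIKflox libraries lay above every NIKhKO library. With the counts of both genes entered as 1 feature, the log2 fold change was −0.40 (SE 0.18), a smaller difference than that of Cyp2a4 alone. The share of the sum assigned to Cyp2a4 was 22.01%, 41.7%, 38.0%, 33.2% and 35.8% in NIKhKO 1 to 5, against 69.0%, 70.3%, 36.1%, 62.8% and 39.1% in NIKflox 1 to 5. NIKflox 3 and 5, the libraries with the most Cyp2a5, thus had shares within the NIKhKO range, and NIKflox 1, 2 and 4 had shares above it. These shares depend on how the authors' software divided reads between the genes, and its part in the difference was not tested.

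**Figure D2:**
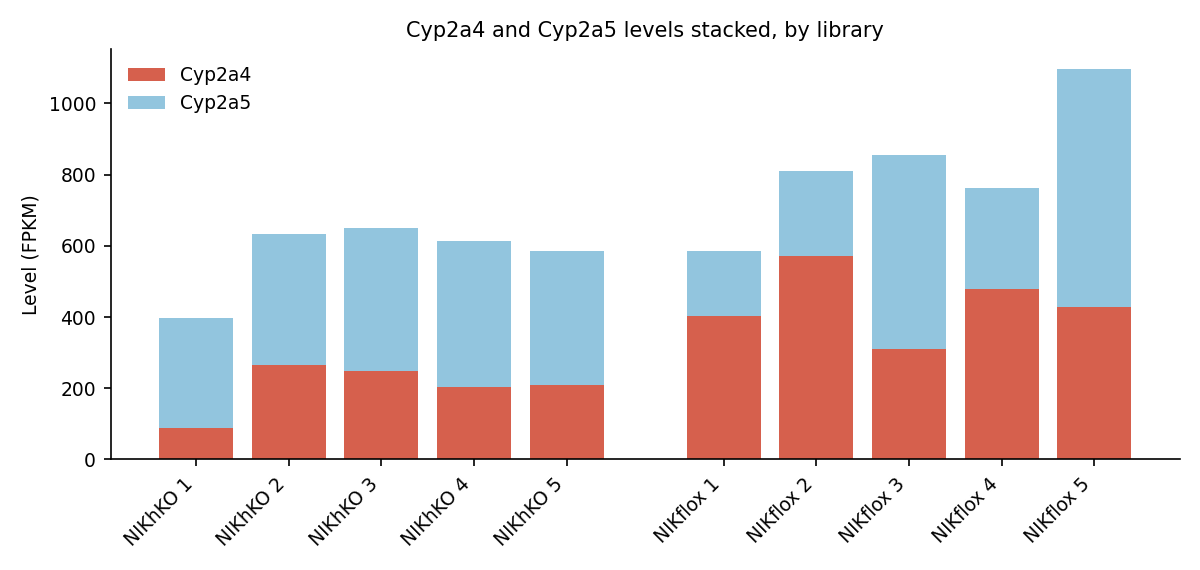
Cyp2a4 (red) and Cyp2a5 (blue) levels in FPKM stacked for each library, NIKhKO 1 to 5 on the left and NIKflox 1 to 5 on the right. The stacks reach 398 to 651 FPKM in NIKhKO and 585 to 1097 FPKM in NIKflox, and the Cyp2a4 part is largest in NIKflox 1, 2 and 4 as a share of the stack.

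Within the genotypes the members did not vary as 1 group. After the mean of each genotype was subtracted from log2(FPKM + 1), Pearson's r over the 10 libraries was 0.67 for Cyp2a5 with Cyp2a12, 0.40 for Cyp2a12 with Cyp2a22 and 0.07 for Cyp2a5 with Cyp2a22. For Cyp2a4 it was −0.06 with Cyp2a5, −0.16 with Cyp2a12 and −0.51 with Cyp2a22. These 6 values are descriptions with no p, and the points share libraries and, within each near-identical pair, reads. By the same measure over 9038 genes, the genes most like Cyp2a4 were Hspb1 (r = 0.96), Mapkap1 (0.96), Mospd1 (0.92), Gtf2b (0.89) and Dnajb1 (0.89). Hspb1 and Dnajb1 encode heat shock proteins, and Gtf2b a general transcription factor. Those most like Cyp2a5 were Dpf2 (0.92), Notumos (0.91), Etv3 (0.91), Msl1 (0.90) and Mrgbp (0.89). Those most like Cyp2a12 were Cyp2c29 (0.96), another abundant hepatic P450 gene, Zadh2 (0.93), Plcg1 (0.92), the glutathione transferase gene Gstm3 (0.91) and Rnd2 (0.91). Those most like Cyp2a22 were Nkiras2 (0.92), Polr2j (0.92), Pus10 (0.87), Apoh (0.87) and Smim19 (0.87). None of these 4 lists holds another Cyp2a gene. Each list holds the highest of 9038 values taken over only 10 libraries, so high values can arise without any link. For Cyp2a4 the values also rest heavily on NIKhKO 1, at 87.5 FPKM against 204 to 264 FPKM in the other NIKhKO libraries.

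The Cyp2a genes sit among Cyp2b, Cyp2f and Cyp2g genes in the same stretch of chromosome 7, and of 11 such neighbours 6 passed the filter. Of these 6, 0 were called and 3 had an unadjusted p below 0.05, against 9.99% of all tested genes. All 3 had positive log2 fold changes. DESeq2 called 2 of the 6, Cyp2b10 and Cyp2b13, both higher in NIKhKO, against 1.63% of all tested genes. Cyp2b13, a female-biased P450 gene, averaged 351 ± 60.2 FPKM in NIKhKO and 163 ± 34.1 FPKM in NIKflox (SD, n = 5 each). Its ranges did not overlap, which held for 2.19% of all tested genes. Its log2 fold change was 1.16 (SE 0.17, edgeR adjusted p = 0.0559). Cyp2b10, the standard target of the nuclear receptor CAR, averaged 103 ± 21.0 FPKM in NIKhKO and 58.1 ± 22.2 FPKM in NIKflox (log2 fold change 0.90, SE 0.25, adjusted p = 0.265). Cyp2b9, also female-biased, averaged 404 ± 17.1 FPKM in NIKhKO and 342 ± 46.8 FPKM in NIKflox (0.30, SE 0.10, adjusted p = 0.323). Cyp2f2, a P450 gene of periportal liver and airway, averaged 398 ± 84.7 FPKM in NIKhKO and 470 ± 108 FPKM in NIKflox (−0.17, SE 0.19). Cyp2g1, the gene next to Cyp2a5, averaged 1.29 ± 0.788 FPKM in NIKhKO and 1.88 ± 1.11 FPKM in NIKflox (−0.50, SE 0.55). The pseudogene Cyp2a21-ps averaged 4.63 ± 2.32 FPKM in NIKhKO and 4.67 ± 1.66 FPKM in NIKflox (0.04, SE 0.34). The 5 genes under the filter, Cyp2s1, Cyp2t4, Cyp2b19, Cyp2b23 and Cyp2b26-ps, stayed at or under 0.200 FPKM in every library. Reads of the Cyp2b genes may also be split among close paralogs. The tests of these neighbours do not compare them with Cyp2a4.

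**Figure D3:**
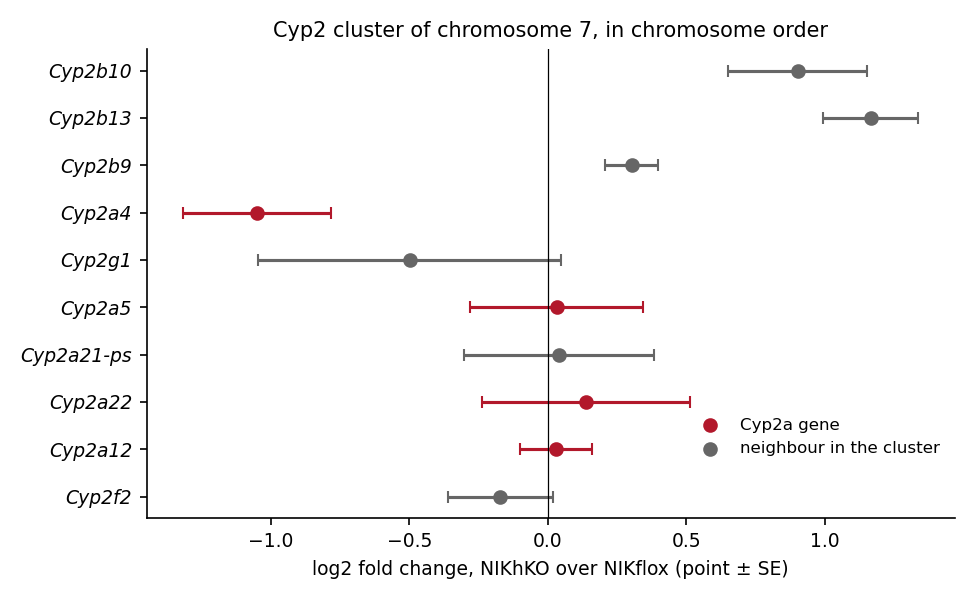
Log2 fold change, NIKhKO over NIKflox, of the 4 Cyp2a genes (red) and the 6 tested neighbours (grey) in chromosome order from top to bottom; bars are the standard error of the edgeR fit. Cyp2a4 lies at −1.05, the Cyp2b genes at 0.30 to 1.16, and the 3 other Cyp2a genes within 0.14 of 0.

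Regulators linked to the Cyp2a genes were looked up as a list of 25 genes, all of which were tested. In edgeR 0 were called and 3 had an unadjusted p below 0.05, against 9.99% of all tested genes. The median log2 fold change was −0.01, the same as that of all tested genes (−0.01). Dbp, the clock output factor named above, read 4.32, 10.96, 2.295, 3.05 and 8.40 FPKM in NIKhKO 1 to 5, against 0.352, 1.27, 3.68, 0.953 and 0.631 FPKM in NIKflox 1 to 5 (log2 fold change 2.13, SE 0.61, adjusted p = 0.287). NIKflox 3 was the only NIKflox library inside the NIKhKO range. Cux2, a transcription factor of female mouse liver, averaged 1.46 ± 0.595 FPKM in NIKhKO and 2.99 ± 0.971 FPKM in NIKflox (−0.99, SE 0.29, adjusted p = 0.295). Onecut1, also known as HNF6, averaged 1.64 ± 0.837 FPKM in NIKhKO and 3.35 ± 0.789 FPKM in NIKflox (−0.98, SE 0.34, adjusted p = 0.366). Hnf4a and Cebpa, named for the motifs above after their values were seen, had log2 fold changes of −0.08 (SE 0.12, adjusted p = 0.886) and 0.33 (SE 0.20, adjusted p = 0.654). Nr1i3, which encodes CAR and was also named after its values were seen, had 0.11 (SE 0.13, adjusted p = 0.841).

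Genes of electron transfer to P450 enzymes and of haem synthesis and breakdown, taken as 1 list, showed 0 edgeR calls in 19 tested. At an unadjusted p below 0.05 there were 4, against 9.99% of all tested genes, and the median was 0.00. Blvrb, a biliverdin reductase, averaged 24.8 ± 3.86 FPKM in NIKhKO and 35.8 ± 3.83 FPKM in NIKflox (log2 fold change −0.47, SE 0.11, adjusted p = 0.226). Its ranges did not overlap, which held for 2.19% of all tested genes. Fdx1, a ferredoxin, had 0.28 (SE 0.11, adjusted p = 0.446) and the haem oxygenase Hmox1 0.46 (SE 0.19, adjusted p = 0.446). Por itself, named after its value was seen, had 0.02 (SE 0.14, adjusted p = 0.983).

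Sex-biased liver genes went in more than 1 direction. Of 22 tested female-biased genes 0 were called in edgeR, 12 had positive and 10 negative log2 fold changes, and the median was 0.10. At an unadjusted p below 0.05, which 9.99% of all tested genes had, 7 were positive and 5 negative, the side of Cyp2a4. Those with the smallest p, Cyp2b13, Prom1 (1.18, SE 0.24, adjusted p = 0.192) and the sulfotransferase gene Sult2a2 (0.62, SE 0.14, adjusted p = 0.226), were positive. Of 23 male-biased genes 16 passed the filter. Of these 16, 0 were called in edgeR, 12 had negative values and the median was −0.44. At an unadjusted p below 0.05 there were 3, all negative, against 9.99% of all tested genes. Gstp1, a glutathione transferase, had −0.91 (SE 0.19, adjusted p = 0.204), Mup1, a major urinary protein gene, −1.99 (SE 0.60, adjusted p = 0.295) and Ugt2b38, a glucuronosyltransferase gene, −0.47 (SE 0.15, adjusted p = 0.330). Mup1 averaged only 0.430 FPKM in NIKhKO and 1.78 FPKM in NIKflox, near the filter of 0.5 FPKM.

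Clock genes and their outputs showed 0 edgeR calls in 17 tested, with a median of 0.26. At an unadjusted p below 0.05 there were 7, against 9.99% of all tested genes, and 5 of them were positive. Nr1d1, a clock repressor, averaged 20.3 ± 4.24 FPKM in NIKhKO and 10.3 ± 3.64 FPKM in NIKflox (log2 fold change 1.04, SE 0.24, adjusted p = 0.226). Its ranges did not overlap, which held for 2.19% of all tested genes. Nr1d2 had 0.72 (SE 0.27, adjusted p = 0.402). No label gives the hour at which livers were taken, and its part in the Cyp2a values was not tested.

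Zonal genes gave 0 edgeR calls in 21 tested pericentral and 16 tested periportal genes, with medians of 0.06 and 0.07. At an unadjusted p below 0.05 there were 9 pericentral genes, 5 positive and 4 negative. There were 3 such periportal genes, 2 positive and 1 negative, and 9.99% of all tested genes had such a p. On the pericentral side Tbx3 had −0.78 (SE 0.18, adjusted p = 0.226), the Wnt target Axin2 −1.03 (SE 0.28, adjusted p = 0.265) and Cyp2e1, the ethanol-inducible P450, 0.39 (SE 0.12, adjusted p = 0.315). On the periportal side the glutaminase gene Gls2 had 0.51 (SE 0.14, adjusted p = 0.264), Aldh1b1 0.66 (SE 0.18, adjusted p = 0.265) and Apoa4 −0.77 (SE 0.28, adjusted p = 0.383). The FPKM ranges of Tbx3, Cyp2e1 and Gls2 did not overlap, against 2.19% of all tested genes. Of 26 tested targets of the xenobiotic receptors CAR and PXR, 0 were called in edgeR, 20 were positive and the median was 0.20, with Cyp3a11 at 0.39 (SE 0.12, adjusted p = 0.299) beside Cyp2b13 and Cyp2b10. An unadjusted p below 0.05 was seen for 10 of the 26, 9 positive and 1 negative, against 9.99% of all tested genes. Of 27 tested targets of NRF2, a factor known to act on Cyp2a5 in mice, 0 were called in edgeR and the median was 0.07. An unadjusted p below 0.05 was seen for 5 of the 27, 1 positive and 4 negative, against 9.99% of all tested genes. After Gstp1, the smallest p-values there belonged to the carbonyl reductase gene Cbr3 (−1.45, SE 0.42, adjusted p = 0.289) and the epoxide hydrolase gene Ephx1 (−0.50, SE 0.18, adjusted p = 0.366). Of 48 other tested P450 genes 0 were called in edgeR, 24 were positive and 24 negative, and the median was −0.01. An unadjusted p below 0.05 was seen for 15 of the 48, 8 positive and 7 negative, against 9.99% of all tested genes. FPKM ranges did not overlap for 3 of these genes that were lower and 1 that was higher in NIKhKO, against 2.19% of all tested genes. Among the 3 with the smallest p, Cyp4f14 (−0.70, SE 0.19, adjusted p = 0.264) and Cyp2c67 (−0.40, SE 0.12, adjusted p = 0.292) had such ranges. The third, Cyp3a44, had −2.53 (SE 0.70, adjusted p = 0.265) with overlapping ranges.

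Over the 11 lists, 0 of 202 distinct tested genes were called in edgeR, and 56 had an unadjusted p below 0.05, while 9.99% of all tested genes had one. Limma on log2(FPKM + 1) also called 0 of the 202, and DESeq2 called 17 of the 202, against 1.63% of all tested genes. Of these 17, 8 were higher and 9 lower in NIKhKO. They were Aldh1b1, Axin2, Blvrb, Cbr3, Cux2, Cyp2b10, Cyp2b13, Cyp3a44, Cyp4f14, Gls2, Gstp1, Hao2, Mup1, Nr1d1, Prom1, Sult2a2 and Tbx3. The lists were chosen with earlier results of these data known, so these shares support nothing further.

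**Figure D4:**
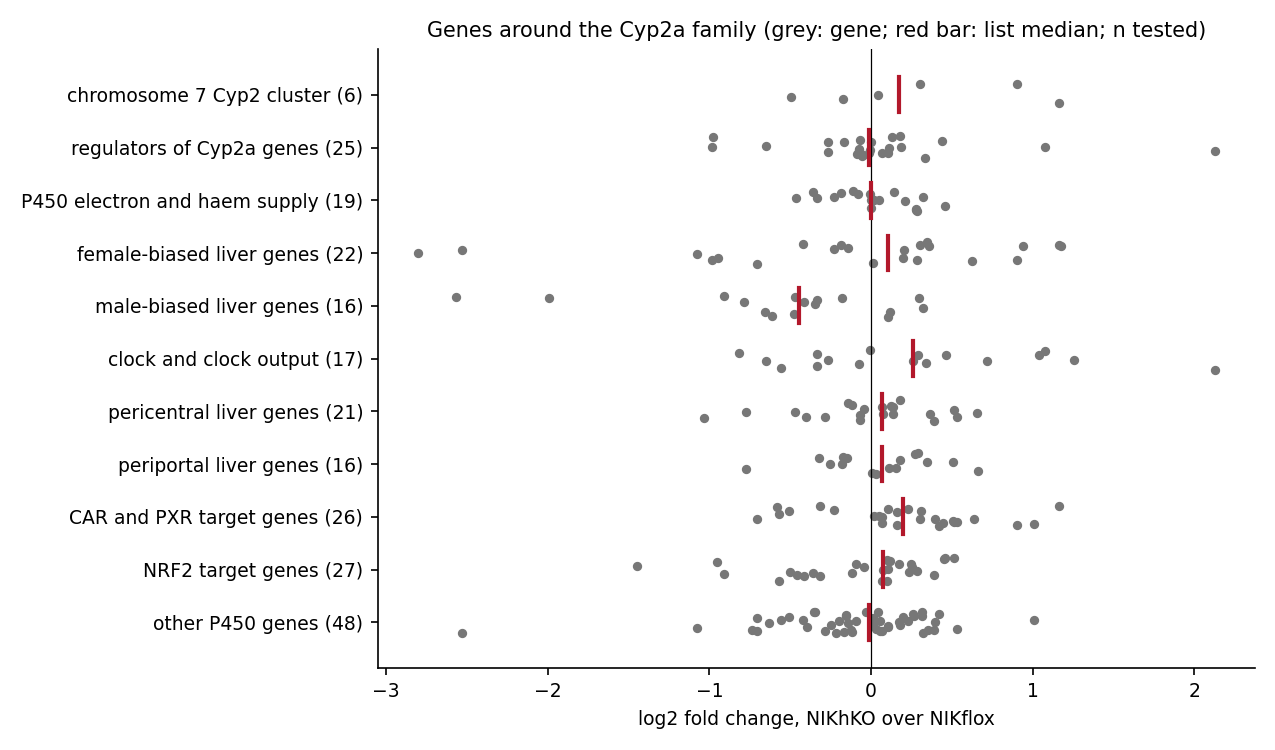
Log2 fold change, NIKhKO over NIKflox (horizontal axis), of each tested gene (grey points, spread vertically only to separate them) in the 11 lists, with the list median as a red bar and the number tested in brackets. The medians lie between −0.44 for male-biased genes and 0.26 for clock genes.

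The libraries were checked for other tissues in which Cyp2a genes are known to be expressed. Hepatocyte markers summed to 41100 to 48310 FPKM in NIKhKO and 37590 to 52540 FPKM in NIKflox, with 8 of 8 passing the filter. Kidney markers summed to at most 0.00640 FPKM in NIKhKO and 0.00532 FPKM in NIKflox, with 7 of 8 at 0 in every library. Lung and nasal epithelium markers summed to 0.219 to 2.05 FPKM in NIKhKO and 0.227 to 2.98 FPKM in NIKflox, with 0 of 8 passing the filter. Heart markers summed to 0.117 to 0.210 FPKM in NIKhKO and 0.0101 to 30.8 FPKM in NIKflox, where NIKflox 2 reached 6.90 FPKM and NIKflox 4 30.8 FPKM. These are also the libraries with the most Cyp2a4, and without both of them the log2 fold change of Cyp2a4 was −0.86. Adipose markers summed to 4.55 to 7.65 FPKM in NIKhKO and 5.33 to 31.4 FPKM in NIKflox, with NIKflox 2 the highest. Cholangiocyte markers summed to 16.1 to 27.6 FPKM in NIKhKO and 26.4 to 46.9 FPKM in NIKflox, and B cell markers to 5.64 to 15.2 FPKM in NIKhKO and 4.23 to 7.43 FPKM in NIKflox. Stellate markers summed to 69.0 to 105.6 FPKM in NIKhKO and 92.9 to 143 FPKM in NIKflox, endothelial markers to 27.9 to 45.7 FPKM in NIKhKO and 39.0 to 50.7 FPKM in NIKflox, and macrophage markers to 94.3 to 150.7 FPKM in NIKhKO and 88.5 to 150.6 FPKM in NIKflox. The part of these cells in the Cyp2a values was not tested.

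Leaving out 1 library at a time moved the Cyp2a4 log2 fold change between −1.15 and −0.85. The value nearest to 0 was that without NIKhKO 1, the library with the least Cyp2a4. For Cyp2a5 the values ran from −0.14 without NIKflox 1 to 0.34 without NIKflox 5, for Cyp2a12 from −0.04 to 0.09 and for Cyp2a22 from −0.11 without NIKhKO 1 to 0.36 without NIKhKO 5.

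**Figure D5:**
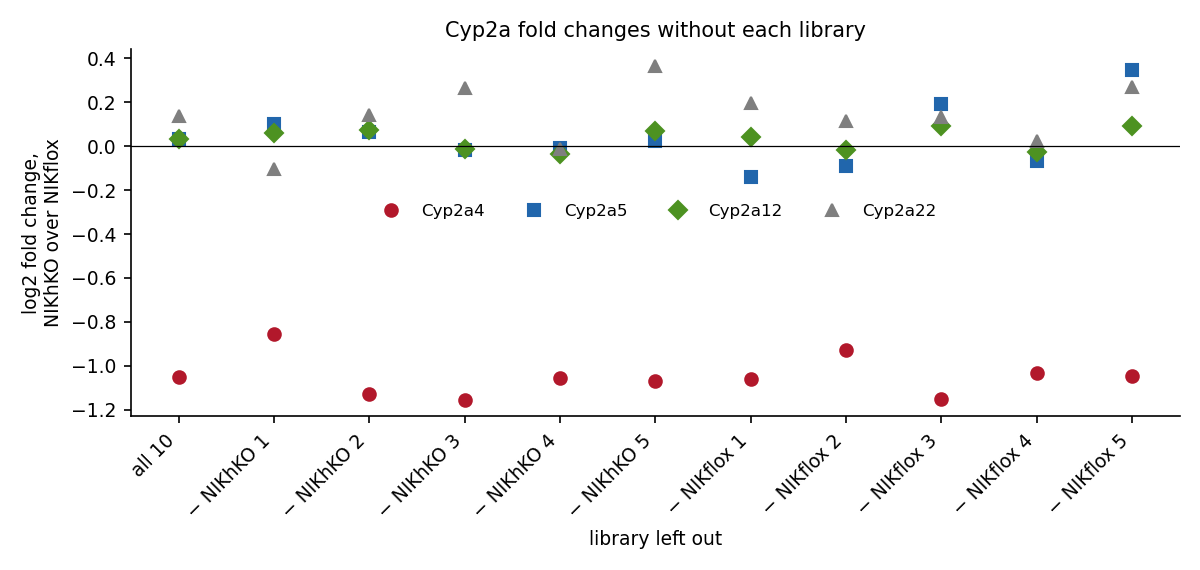
Log2 fold change, NIKhKO over NIKflox, of the 4 Cyp2a genes in the edgeR fit with all 10 libraries and with each library left out in turn. Cyp2a4 stays between −1.15 and −0.85, and the other 3 genes scatter around 0 between −0.14 and 0.36.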

How the data were processed

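Liver RNA of 10 mice was sequenced, 5 NIKhKO and 5 NIKflox. The authors deposited FPKM values, named so in the file headers, and the estimated counts were deposited beside them as whole numbers that are not normalized. The submitters' processing notes list edgeR, StringTie 1.3.4d, HISAT2 2.0.4 and cutadapt 1.9 without their roles, and hg38, a human build, although the table holds mouse Ensembl genes. Low estimated counts pile up at 4 (on average 907 genes per library, against 330.5 at 3 and 175.8 at 5), so they are not plain numbers of reads. Genes at a count of 0 are listed at 1e-04 FPKM.

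All genes with a mean of at least 0.5 FPKM over the 10 libraries (12730) were fitted together with edgeR 4.0.16 in R 4.3.3 (TMM normalization, quasi-likelihood test, two-sided, Benjamini-Hochberg adjustment over all tested genes, no covariate). Calls are at an adjusted p under 0.05. Log2 fold changes are NIKhKO over NIKflox, and their standard error is the absolute value divided by the square root of F. The fit was tested on simulated counts with known fold changes. Transcripts came from GENCODE M21 and promoters from RefSeq, both GRCm38, where 4 of 4 genes matched by symbol, and were aligned with Biopython 1.88. Alternatives were limma 3.58.1, DESeq2 1.42.0, other scalings and filters, a replicate block and leaving out libraries.

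The members and lists were chosen with earlier results of these data known. Named were the 4 members, all tested neighbours on chromosome 7, and in each other list the called genes or else the 3 with the smallest unadjusted p. The genes most like each member were the 5 with the highest r among those with a mean of at least 1 FPKM and a regular symbol. The list of other P450 genes had 51 of 52 symbols in the table.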

Additional observations from a re-analysis of the deposited data

Results flagged for a closer look

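Of 24 groups of 5 libraries checked for 1 library standing apart (Dixon's test at 95%), 3 were flagged, and chance flags about 1 in 20. The sum of Cyp2a4 and Cyp2a5 was lowest in NIKhKO 1, at 397.5 FPKM, with the other NIKhKO libraries at 585 to 651 FPKM, and this library also had the least Cyp2a4 of all. Among the NIKhKO libraries Cyp2g1 was highest in NIKhKO 4, at 2.66 FPKM, with the other NIKhKO libraries at 0.670 to 1.21 FPKM. NIKflox 1 and 5 were higher still, at 3.06 and 2.75 FPKM. The pseudogene Cyp2a21-ps, which spans Cyp2a22 on the other strand, was highest in NIKhKO 4 too, at 8.75 FPKM, with the other NIKhKO libraries at 3.29 to 3.94 FPKM.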

How the results depend on the processing

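The direction of the Cyp2a4 difference was negative in all 21 settings run, with log2 fold changes of −1.18 to −0.85 and, with the counts of Cyp2a4 and Cyp2a5 added into 1 feature, −0.40. That alternative changes the quantity itself, since it holds both genes. The family was chosen on the Cyp2a4 difference in these same libraries, and the FPKM ranges of Cyp2a4 do not overlap. Its sign could therefore hardly turn in these settings and adds no support. The signs of Cyp2a5, Cyp2a12 and Cyp2a22 depended on the setting, being negative in 7 of 21, 7 of 20 and 6 of 20 settings, and each stayed within 1 SD of the value given. Without NIKflox 2 and 4, an alternative chosen after seeing the data, Cyp2a5 stood at −0.25.

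The number of genes called over all tested genes was 3, and it was 207 in DESeq2 (126 higher, 81 lower), 0 in limma with a pseudocount of 1 or 0.1, and 1 without NIKflox 2 and 4; the cause was not tested. Leaving out 1 library gave 0 to 24, with 3 without NIKflox 3, 24 without NIKhKO 4 and 0 without any other. The number of called list genes was 0, and 17 in DESeq2. Leaving out 1 library gave 0 to 1, the 1 being Cyp2b13 without NIKhKO 4. With the replicate number as a block, 2 genes were called, and the Cyp2a4 log2 fold change was −1.11. Same-numbered libraries of the genotypes correlated at −0.268 to 0.0506, and 1 of 10 libraries correlated best with its own number. This check showed no pairing by number, and it cannot exclude litters, cages or extractions shared between libraries.

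Depth limits Cyp2a22 most among the 4 genes, since it rests on 130 to 636 estimated counts in NIKhKO and 279 to 490 in NIKflox.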
